A study of Mus musculus with 18 samples.

Results

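Txnip encodes thioredoxin-interacting protein, an alpha-arrestin that binds thioredoxin and promotes removal of glucose transporters from the cell surface. It was followed together with 8 genes of the same glucose-sensing axis, which made 9 of the 55487 genes in the table of counts. These were the Mondo factors Mlxip (MondoA) and Mlxipl (ChREBP) and their partner Mlx, the arrestin-domain genes Arrdc4, Arrdc3 and Arrdc2, thioredoxin (Txn1) and thioredoxin reductase (Txnrd1). The genes were chosen by the difference of Txnip between UK14,304 and DMSO vehicle, measured as a log2 fold change. For these 9 genes the values of that comparison are therefore given as a description without a test. Norepinephrine against HCl vehicle was tested, since its groups hold other samples. However, the fit over all 18 samples takes its spread from the UK14,304 and DMSO vehicle samples too. Where terms for the replicate number were added, these also drew on those samples. The 9 genes were also chosen with earlier results of these data known, so this test may not be independent of that choice.

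When glucose enters a cell and is phosphorylated, MondoA or ChREBP moves to the nucleus as a dimer with Mlx and binds carbohydrate response elements, pairs of E-box-like half-sites in the promoters of its targets. Txnip and Arrdc4 are classical targets of this kind, and their proteins lower glucose uptake in return. In the small intestine, ChREBP is known for its part in the handling of dietary sugars, above all fructose.

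The RNA came from organoids of the mouse small intestine, 3-dimensional cultures of crypt stem cells and their offspring. According to the methods of the study, they came from female wild-type C57BL/6 mice and were treated after 4 passages. The groups were HCl vehicle (4 samples), 1 μM norepinephrine (5 samples), DMSO vehicle (4 samples) and 1 μM UK14,304 (5 samples), each for 4 days. Norepinephrine acts on alpha- and beta-adrenergic receptors, and UK14,304 is an agonist of the alpha-2 receptors. The sample names carry a number, m1 to m5, taken here to mark the mouse of origin. Numbers m1 to m4 occur in all groups, and m5 occurs with the agonists but not with the vehicle controls.

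Total counts ranged from 21866149 to 27850373 per sample. Ribosomal RNA was measured by the counts of 1 annotated gene entry, so its share is not the whole ribosomal RNA content. This share was over 1% of the counts in 7 of the 18 libraries. Of these, 3 were DMSO vehicle, 2 norepinephrine, 1 HCl vehicle and 1 UK14,304. The norepinephrine m4 and UK14,304 m4 libraries stood apart from the rest, with an SD of 0.229 and 0.214 (log2 scale) of their residuals after group and number were fitted, against 0.146 to 0.18 in the other 16 libraries. Across genes, these residuals correlated with GC content at 0.59 in norepinephrine m4 and at -0.55 in UK14,304 m4. The epithelial markers Epcam, Cdh1, Vil1 and Krt8 summed to 4948 to 5454 CPM (read counts scaled to the library size) in all samples. The mesenchymal markers summed to at most 0.562 CPM and the immune markers to at most 2.88 CPM. In these bulk samples, fewer cells of a type cannot be told apart from less RNA per cell.

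The promoters of Txnip and Arrdc4 are shown because both are classical targets of the Mondo factors and yet gave different values here. The 250 bases before each start site were read from the RefSeq promoter table (GRCm38.p6), 5′ to 3′ along the gene. Capitals mark 4 motifs searched on both strands: the carbohydrate response element (a pair of CACGNG half-sites with 5 bases between them), the E-box CACGTG, the CCAAT box CCAAT and the forkhead motif GTAAACA. No motif match overlapped another in these windows.
Txnip, chr3:96557707-96557956, plus strand: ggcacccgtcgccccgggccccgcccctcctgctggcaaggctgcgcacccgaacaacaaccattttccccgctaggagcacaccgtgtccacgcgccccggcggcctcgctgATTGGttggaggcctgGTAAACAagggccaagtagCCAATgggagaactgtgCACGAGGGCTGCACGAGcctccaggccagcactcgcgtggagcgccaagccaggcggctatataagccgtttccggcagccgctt
Arrdc4, chr7:68749239-68749488, minus strand: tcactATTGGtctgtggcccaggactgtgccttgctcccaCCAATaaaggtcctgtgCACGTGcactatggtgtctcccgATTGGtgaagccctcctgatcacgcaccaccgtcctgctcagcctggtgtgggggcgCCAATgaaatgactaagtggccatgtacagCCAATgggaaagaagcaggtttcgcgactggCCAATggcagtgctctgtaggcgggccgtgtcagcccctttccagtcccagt

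In the Txnip window the carbohydrate response element read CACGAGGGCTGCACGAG and lay 85 to 69 bases before the start. This motif was found in 0.0457% of the 32851 windows of the same length in the table, and in none of the windows of the other 8 genes. Txnip also had 1 forkhead motif, present in 3.17% of all windows, and 2 CCAAT boxes. Arrdc4 had 6 CCAAT boxes, a motif held at least once by 33.8% of all windows, and 1 E-box, held by 6.02%. The windows of Mlx and of Mlxipl held 1 E-box each. All 9 genes had at least 1 window in the table. A match describes the letters in these windows and is not evidence of binding. Looser spellings of the carbohydrate response element and bases further upstream were not searched, so a window without a match does not show that the gene lacks the element. The part of these motifs in the values of Txnip and Arrdc4 was not tested.

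The Txnip gene spans chr3:96557957-96561883 on the plus strand (GRCm38). Of its 3123 exonic bases, 606 (19.4%) also belong to exons of Gm15441, a gene on the opposite strand, and reads over both genes were not counted. Gm15441 itself was counted 16 to 35 times per library, against 8673 to 14831 for Txnip, and its mean level was 1.00 ± 0.158 CPM (SD, n = 4) in DMSO vehicle samples and 0.972 ± 0.26 CPM (SD, n = 5) in UK14,304 samples. Mlx shares 385 exonic bases (19.3%) with Psmc3ip on the opposite strand. Txn1 has a near copy, Txn-ps1, which matched it over 309 bases at 95.8% identity and was counted at most 22 times per library.

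The 9 genes were all measured above the filter on low counts and covered a wide range of levels per kb of exon. Txn1 was the highest, with 770.4 ± 29.9 CPM per kb (SD, n = 18). Txnip followed with 141 ± 16.6 CPM per kb, above Txnrd1 with 75.4 ± 3.49. The regulators were lower, with Mlxipl at 50.2 ± 4.14, Mlx at 36.3 ± 1.41 and Mlxip at 23.3 ± 0.678 CPM per kb, so that in the organoids the transcript of ChREBP exceeded that of MondoA in all samples. Arrdc4 lay between Mlx and Mlxip at 26.6 ± 0.907, and Arrdc3 and Arrdc2 were the lowest at 5.69 ± 0.387 and 4.96 ± 0.623 CPM per kb. Each gene exceeded the next one in this order in 18 of 18 samples and without overlap of their ranges, except that Arrdc3 exceeded Arrdc2 in 15 samples, with overlapping ranges.

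**Figure D1:**
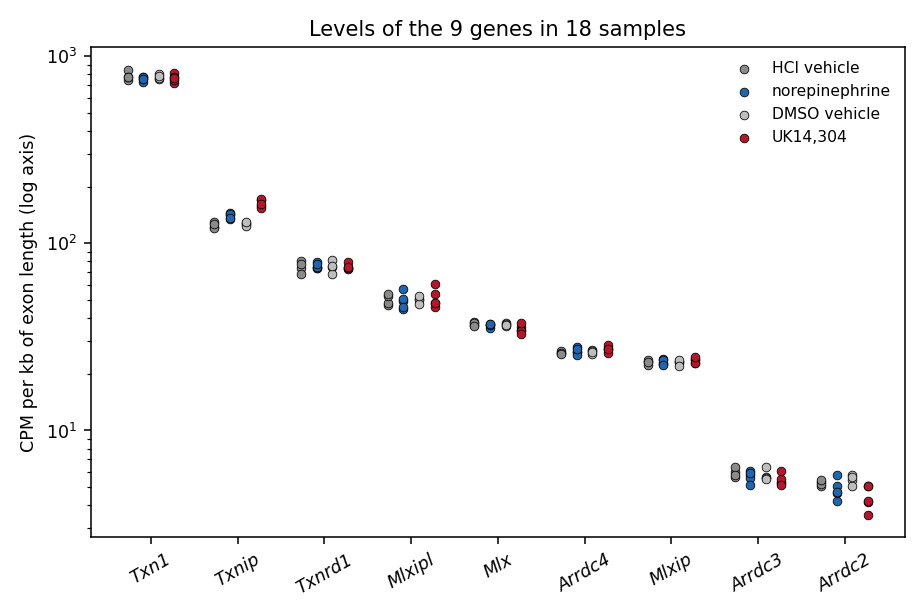
Levels of the 9 genes in CPM per kb of exon length (log axis), 1 point per sample, coloured by group. The genes span from about 4.96 (Arrdc2) to 770.4 (Txn1) CPM per kb on average. For Txnip, which was singled out by its UK14,304 values, the 5 UK14,304 samples lie above all others.

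Of the regulators, none differed detectably between norepinephrine and HCl vehicle. Mlxip measured 185 to 197 CPM in the 4 HCl vehicle samples and 187 to 199.7 CPM in the 5 norepinephrine samples, a log2 fold change of 0.00 with a 95% interval of -0.08 to 0.08. For Mlxipl the ranges were 260.3 to 295 CPM with HCl vehicle and 246 to 317 CPM with norepinephrine, and the log2 fold change was -0.02 (95% interval -0.19 to 0.14). Mlx measured 72.7 to 75.9 CPM with HCl vehicle and 70.3 to 74.5 CPM in norepinephrine samples, and its log2 fold change was -0.02 (95% interval -0.11 to 0.06). The adjusted p was 0.99 for Mlxip, 0.94 for Mlxipl and 0.89 for Mlx (edgeR's quasi-likelihood test with Benjamini-Hochberg adjustment), and the groups overlapped in each case.

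With UK14,304, Mlxip ranged from 192 to 206 CPM against 185 to 197 CPM with DMSO vehicle, and Mlxipl from 254 to 335 CPM against 263 to 290.1 CPM. The log2 fold changes were 0.04 and 0.03. Mlx measured 71.7, 68.6, 67.8, 65.8 and 75.3 CPM in UK14,304 samples m1 to m5, and 75.2, 74.0, 72.3 and 73.5 CPM in DMSO vehicle samples m1 to m4. It was lower with UK14,304 in 4 of 4 pairs of the same number, which held for 15.5% of all genes tested, but sample m5 with UK14,304 lay above all vehicle samples. Its log2 fold change was -0.08, or -0.10 with the replicate number as a block.

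Txnip was higher in every norepinephrine sample than in any HCl vehicle sample. It measured 383, 405, 377 and 396 CPM in HCl vehicle samples m1 to m4, and 454, 444, 422, 448 and 426 CPM in norepinephrine samples m1 to m5. The lowest norepinephrine value, in m3, thus lay above the highest vehicle value, in m2. All agonist samples lay above all vehicle samples for 0.643% of the genes tested, and among the 9 genes this held for Txnip. Within pairs of the same number, norepinephrine was higher by 0.24, 0.13, 0.16 and 0.18 on the log2 scale, and 5.32% of all genes were higher in 4 of 4 pairs.

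The test of this difference depended on how the samples were paired. Without the replicate number, the log2 fold change was 0.17 ± 0.04 (SE), a fold of 1.12, and Txnip did not pass (adjusted p = 0.71, edgeR's quasi-likelihood test with Benjamini-Hochberg adjustment). No gene passed in that fit (0% of 15247), where 943 had an unadjusted p under 0.05 and DESeq2 also called 0. With the number as a block, the log2 fold change was 0.18 ± 0.03 (SE) and Txnip rose (adjusted p = 0.031), as 1 of the 9 genes and 1 of 16 genes in all (0.105%), of which 2 were higher (0.0131%). In a two-sided exact permutation test of Txnip alone over the 126 possible assignments of the samples, p was 0.00794, the smallest that this design allows. The paired two-sided exact test over 4 pairs gave 0.125, also the smallest possible. Both values restate the separation of the groups and the shared sign of the 4 pairs, and add nothing to them.

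The call with the block rested on single samples. When each of the 18 samples was left out in turn, the log2 fold change with the block stayed between 0.16 and 0.19, and the adjusted p ranged from 0.00102 to 0.218 and passed in 9 of 18 cases. Leaving out any HCl vehicle sample ended the call, with an adjusted p of 0.161 without m1, 0.0894 without m2, 0.109 without m3 and 0.144 without m4, as did leaving out norepinephrine m1 (0.218), m2 (0.0697) or m3 (0.103). Without DMSO vehicle m4 it was 0.0543 and without UK14,304 m2 it was 0.0523. Without the norepinephrine m4 library it fell to 0.00102, but there 16.7% of the genes tested passed. With norepinephrine and HCl vehicle samples alone and the block, the adjusted p was 0.264.

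Txnip with UK14,304 is given here as a description, because this comparison singled it out. It measured 395, 401, 389 and 407 CPM in DMSO vehicle samples m1 to m4, and 495, 532, 484, 537 and 505 CPM in UK14,304 samples m1 to m5. The lowest UK14,304 sample, m3, thus lay above the highest vehicle sample, m4. This held in the same direction for 1.72% of all genes tested. The log2 fold change was 0.36, a fold of 1.28, and 0.37 with the block, and the differences within pairs were 0.33, 0.41, 0.32 and 0.40. In this comparison 6 genes (0.0394%) passed without the block and 186 (1.22%) with it.

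**Figure D2:**
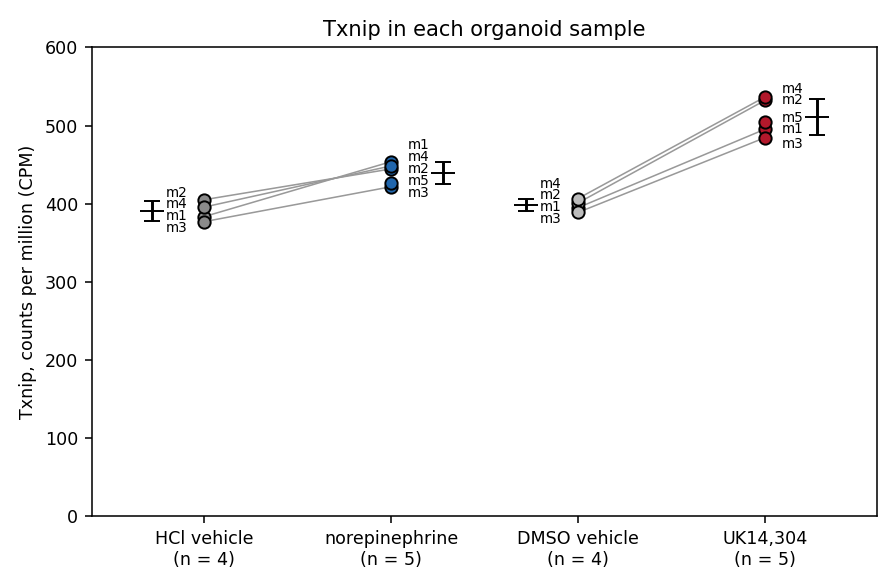
Txnip in CPM in each sample, labelled by replicate number; lines join samples of the same number, and bars beside the points give the mean and SD of each group. The vehicle controls lie between 377 and 407 CPM, the norepinephrine samples between 422 and 454 CPM and the UK14,304 samples between 484 and 537 CPM.

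The vehicle controls overlapped, since Txnip averaged 390.3 ± 12.5 CPM (SD, n = 4) in HCl vehicle samples and 398 ± 7.68 CPM (SD, n = 4) in DMSO vehicle samples. Norepinephrine samples averaged 439 ± 14.2 CPM (SD, n = 5) and UK14,304 samples 511 ± 22.9 CPM (SD, n = 5), and these groups did not overlap. The log2 fold change of Txnip for UK14,304 exceeded that for norepinephrine by 0.19 without and with the block, a difference given without a test because it contains the values that singled out the gene. Norepinephrine and UK14,304 were dissolved in different vehicles, and each effect is relative to its own.

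Txnip was also compared within libraries of like ribosomal RNA share, where 3 of the 4 ratios have a single sample on one side. Among libraries under 1%, the 3 norepinephrine samples averaged 439.98 CPM and the 3 HCl vehicle samples 388.5 CPM, a log2 ratio of 0.18. Above 1%, the 2 norepinephrine samples averaged 437 CPM and the single HCl vehicle sample measured 396 CPM, a log2 ratio of 0.14. The log2 ratio of UK14,304 to DMSO vehicle was 0.34 under 1%, with 1 vehicle sample, and 0.33 above 1%, with 1 UK14,304 sample. The part of ribosomal RNA in these values was not tested.

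Of the markers of Paneth cells, the antimicrobial secretory cells of the crypt, 6 of 6 had a negative log2 fold change in both comparisons, with a median of -0.24 for norepinephrine and -0.23 for UK14,304, where the median of all genes was -0.01 and 0.00. Their summed level ranged from 3592 to 5206 CPM with HCl vehicle and from 2986 to 4018 CPM with norepinephrine, and from 3412 to 4969 CPM with DMSO vehicle and from 3026 to 4248 CPM with UK14,304. None passed without the block, and with it Lyz1, which encodes lysozyme, fell in both comparisons and Ang4, an angiogenin of these cells, fell with UK14,304, where 0.0918% and 1.04% of all genes fell. The proliferation markers Mki67 and Top2a gave 0.10 and 0.13 for norepinephrine and 0.18 and 0.17 for UK14,304, and neither passed. None of the 6 Paneth cell markers was at 0 in all 18 samples, and the part of these cell types in the Txnip values was not tested.

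Arrdc4, the closest relative of Txnip among the targets of the Mondo factors, overlapped with its vehicle controls with norepinephrine. It measured 105, 107, 104.5 and 103 CPM with HCl vehicle and 106, 113, 106, 101.98 and 110.1 CPM with norepinephrine, in order of number. Of the norepinephrine samples, m2 and m5 lay above and m4 below all vehicle samples, and the log2 fold change of 0.03 (95% interval -0.05 to 0.11) did not pass (adjusted p = 0.81, edgeR's quasi-likelihood test with Benjamini-Hochberg adjustment).

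With UK14,304 Arrdc4 measured 109, 112, 105, 115 and 110.3 CPM, against 109, 107, 103 and 107 CPM with DMSO vehicle. The groups overlapped, although the agonist was higher in 4 of 4 pairs, by 0.00 to 0.11 on the log2 scale, as was the case for 14% of all genes. The log2 fold change was 0.05. In HCl vehicle samples the ratio of Txnip to Arrdc4 in CPM per kb was 4.81 ± 0.134 (SD, n = 4), against 5.3 ± 0.302 (SD, n = 5) in norepinephrine samples. In DMSO vehicle samples it was 4.84 ± 0.104 (SD, n = 4), against 5.98 ± 0.103 (SD, n = 5) in UK14,304 samples. Neither agonist overlapped with its vehicle in this ratio. For UK14,304 the ratio contains the Txnip values that singled out the gene, and it is given as a description. How many other ratios separate in this way was not counted.

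Arrdc3 and Arrdc2 encode alpha-arrestins that act as adaptors for ubiquitin ligases at membrane receptors, and Arrdc3 is known for its action on the beta-2-adrenergic receptor. Neither passed for norepinephrine. Arrdc3 ranged from 35.4 to 39.8 CPM with HCl vehicle and from 32.0 to 38.1 CPM with norepinephrine, a log2 fold change of -0.06 (95% interval -0.20 to 0.07, adjusted p = 0.78, edgeR's quasi-likelihood test with Benjamini-Hochberg adjustment). Arrdc2 ranged from 16.3 to 17.6 CPM with HCl vehicle and from 13.6 to 18.7 CPM with norepinephrine, and its log2 fold change was -0.11 (95% interval -0.32 to 0.10, adjusted p = 0.77, same test). Of the norepinephrine samples, m4 held both the lowest value of Arrdc3 and the highest value of Arrdc2, and without this library and with the block the log2 fold changes were 0.00 and -0.21, with adjusted p of 0.992 and 0.0996.

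Arrdc2 showed a negative difference with UK14,304, again given as a description. It measured 17.6, 18.8, 16.2 and 18.3 CPM in DMSO vehicle samples m1 to m4 and 16.4, 13.3, 13.5, 11.5 and 16.3 CPM in UK14,304 samples m1 to m5. The lowest vehicle sample, m3, lay below the UK14,304 samples m1 and m5. All 4 pairs were lower, by values between -0.67 and -0.10, as was the case for 15.5% of all genes tested. The log2 fold change was -0.32, or -0.34 with the block. Arrdc3 ranged from 34.3 to 39.8 CPM with DMSO vehicle and from 31.9 to 38.0 CPM with UK14,304, a log2 fold change of -0.08, and was higher in 1 of 4 pairs.

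**Figure D3:**
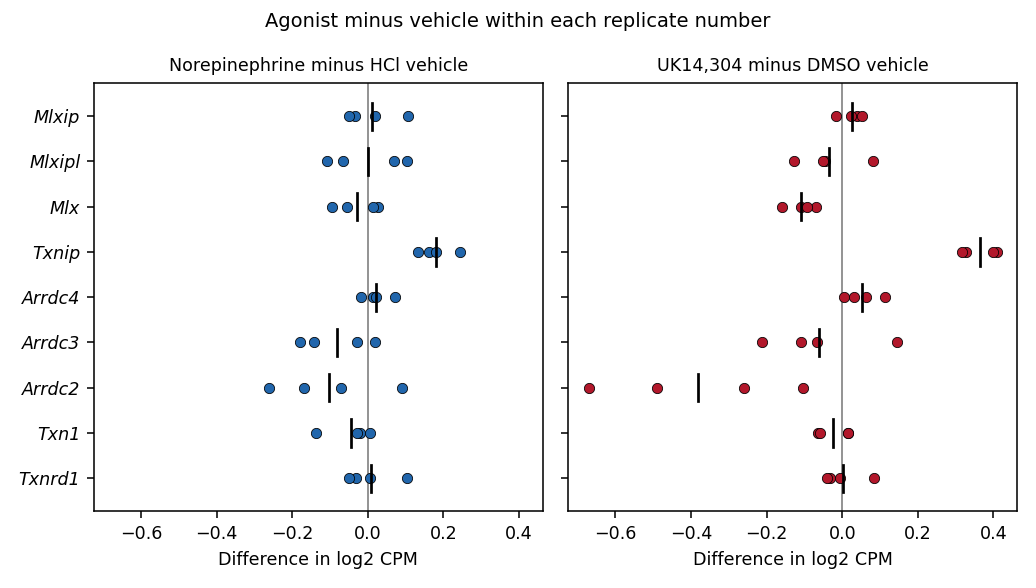
Difference in log2 CPM between agonist and vehicle samples of the same replicate number, 4 points per gene, with the mean as a black line; norepinephrine is on the left and UK14,304 on the right. Txnip is above 0 in all 4 pairs of both comparisons, from 0.13 to 0.24 and from 0.32 to 0.41, Arrdc2 and Mlx are below 0 in all 4 pairs with UK14,304, and the thioredoxin genes lie around 0. All 4 pairs were above 0 for 5.32% of all genes tested with norepinephrine and for 14% with UK14,304, and below 0 for 15.5% with UK14,304.

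The thioredoxin system showed no detectable difference. Thioredoxin, the small redox protein that Txnip binds, ranged from 780.4 to 891 CPM with HCl vehicle and from 769 to 816 CPM with norepinephrine. Its log2 fold change was -0.05 (95% interval -0.14 to 0.05, adjusted p = 0.77, edgeR's quasi-likelihood test with Benjamini-Hochberg adjustment). Txnrd1, the cytosolic enzyme that reduces thioredoxin with NADPH, ranged from 488 to 572 CPM with HCl vehicle and from 525 to 560.4 CPM in norepinephrine samples, and its log2 fold change was 0.01 (95% interval -0.10 to 0.12, adjusted p = 0.96, same test). With UK14,304 the log2 fold changes were -0.02 for Txn1, between 760.5 and 857 CPM, and 0.00 for Txnrd1, between 517 and 563 CPM, and both overlapped with DMSO vehicle.

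The ratio of Txnip to Txn1 per kb was therefore higher with each agonist. In HCl vehicle samples it was 0.16 ± 0.0126 (SD, n = 4), and norepinephrine samples had 0.185 ± 0.00646 (SD, n = 5). In DMSO vehicle samples it was 0.164 ± 0.00573 (SD, n = 4), and UK14,304 samples had 0.214 ± 0.0179 (SD, n = 5). The lowest norepinephrine sample (0.178) lay above the highest HCl vehicle sample (0.175), and the lowest UK14,304 sample (0.195) above the highest DMSO vehicle sample (0.17). This ratio, too, is a description, since for UK14,304 it contains the Txnip values that singled out the gene. The share of other ratios that separate was not counted. The ratio of Mlxipl to Mlxip lay between 1.85 and 2.44 in all samples, and its groups overlapped.

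Across the 18 samples, Arrdc4 followed Txnip more closely than the other 7 genes, with a Pearson correlation of log2 CPM of 0.63, at rank 189 of the genes tested. Mlx (-0.66) and Arrdc2 (-0.67) ran opposite to it, and Mlxipl (0.09) and Txnrd1 (0.13) showed little relation. The genes with the most similar pattern were Gm15657 (0.91), Gm16559 (0.88), Gm16215 (0.85), Scaf8 (0.83), which encodes an RNA polymerase II-binding factor, and Rps23 (0.82), which encodes a ribosomal protein. Of these, Scaf8 averaged 76.9 CPM, and the others averaged 0.763 (Gm16215) to 7.77 CPM (Gm16559) and were measured with fewer counts. Rps23 averaged 1.32 CPM, and since reads with several alignments were not counted, this value may not stand for its whole expression. These correlations share the differences between groups and are given as a description.

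Other targets of the Mondo factors did not move with Txnip as a group. Of 17 listed genes, 14 passed the filter on low counts. For norepinephrine, 3 had a positive and 11 a negative log2 fold change, with a median of -0.06, and none passed in edgeR without or with the block. For UK14,304, 4 were positive and 10 negative, with a median of -0.03, and none passed without the block. Klf10, a transcriptional repressor known as a target of ChREBP, passed with the block and rose, as 1 of 14 genes against 0.177% of all genes. It averaged 64.5 ± 2.06 CPM (SD, n = 4) in DMSO vehicle samples and 74.0 ± 5.29 CPM (SD, n = 5) with UK14,304. These groups did not overlap, as was the case in this direction for 1.72% of all genes tested. The log2 fold change of Klf10 was 0.21 (adjusted p = 0.026 with the block and 0.177 without, edgeR's quasi-likelihood test with Benjamini-Hochberg adjustment). The call was lost when the ribosomal RNA share entered the fit with the block, and also when UK14,304 m4 was left out.

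The largest log2 fold changes among the other targets were those of G6pc, the glucose-6-phosphatase, and Pnpla3, a lipid droplet protein. Neither passed without or with the block, with log2 fold changes for UK14,304 of 0.25 ± 0.17 (SE) and 0.21 ± 0.20 (SE). The fructose genes Khk, the ketohexokinase, Slc2a5, the fructose transporter, and Tkfc, the triokinase, had log2 fold changes for UK14,304 of -0.12, -0.16 and -0.18 and did not pass in these fits either. They were named after their values were seen.

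Of the 8 genes of glucose entry and phosphorylation, 7 had a negative log2 fold change for UK14,304, with a median of -0.19. With the block 3 of them fell, against 1.04% of all genes, and none passed without it. Hk1, a hexokinase, averaged 61.7 ± 12.8 CPM (SD, n = 4) in DMSO vehicle samples and 45.3 ± 10.8 CPM (SD, n = 5) with UK14,304, and Slc2a1, the glucose transporter GLUT1, 118 ± 24.3 and 91.0 ± 17.1 CPM. The groups overlapped for both genes, the vehicle samples varied widely between numbers, and all 4 pairs were lower, as for 15.5% of all genes tested. The log2 fold changes with the block were -0.45 for Hk1 (adjusted p = 0.0031, edgeR's quasi-likelihood test with Benjamini-Hochberg adjustment, and 0.399 without the block) and -0.37 for Slc2a1 (0.00727 and 0.423).

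Hk2, the insulin-regulated hexokinase, measured 112 to 126 CPM with DMSO vehicle and 87.9 to 109 CPM with UK14,304, without overlap, as did 1.78% of all genes in this direction. Its log2 fold change with the block was -0.25 (adjusted p = 0.0192, and 0.119 without the block, edgeR's quasi-likelihood test with Benjamini-Hochberg adjustment). With the ribosomal RNA share added to the block, Hk1 alone of the 3 passed, and with the trend on GC content removed 6 of the 8 passed, which were these 3 and Hkdc1, Slc2a2 and Slc5a1. For norepinephrine, 6 of 8 genes were negative, with a median of -0.07 and log2 fold changes of -0.24 for Hk1, -0.20 for Slc2a1 and -0.14 for Hk2. None passed in either fit, except that 4 of the 8 passed when the norepinephrine m4 library was left out of the fit with the block, in which 16.7% of all genes passed.

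**Figure D4:**
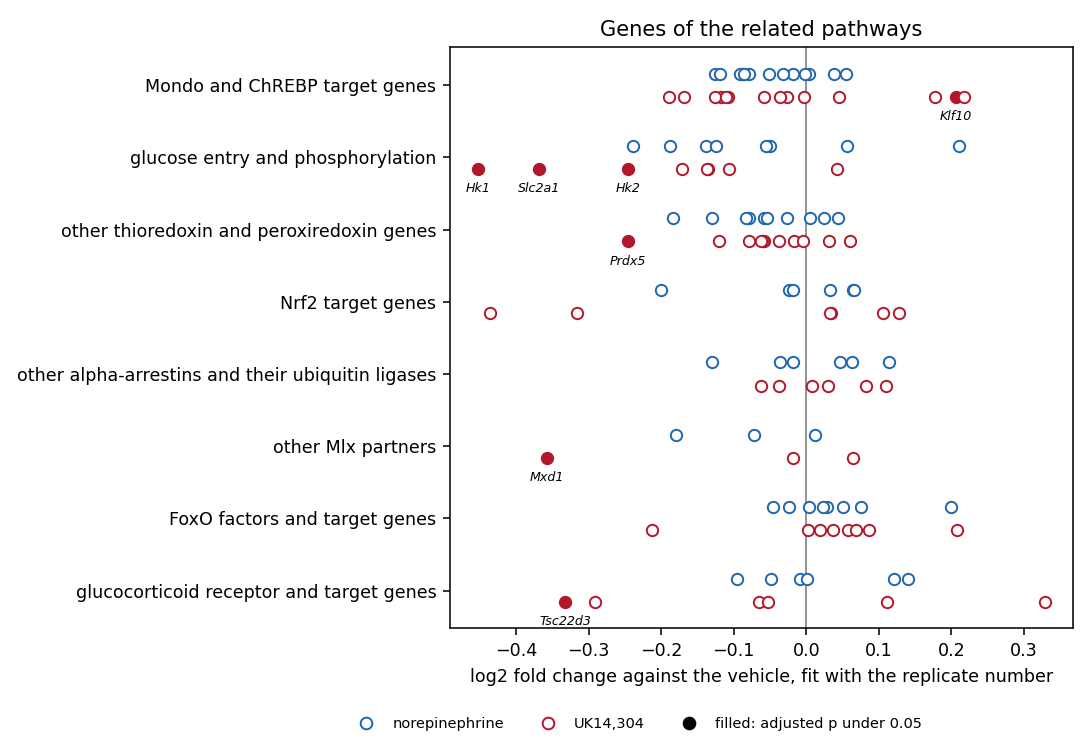
log2 fold change of each tested gene of the 8 related gene lists, from the fit with the replicate number as a block; norepinephrine is in blue and UK14,304 in red, and filled points have an adjusted p under 0.05. The filled points are Klf10 on the right, and Hk1, Slc2a1, Hk2, Prdx5, Mxd1 and Tsc22d3 on the left, all for UK14,304.

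The other thioredoxin and peroxiredoxin genes were mostly unchanged by the test. Of 11, 8 were negative for norepinephrine and 9 for UK14,304, and Prdx5, a peroxiredoxin of mitochondria and peroxisomes, was the single one that passed, for UK14,304 with the block (log2 fold change -0.25, adjusted p = 0.0406, and 0.486 without, edgeR's quasi-likelihood test with Benjamini-Hochberg adjustment). Prdx5 did not pass with the ribosomal RNA share in the fit or without UK14,304 m4. Txnrd2, the mitochondrial reductase, had a log2 fold change of -0.12 for norepinephrine and -0.11 for UK14,304. None of the 6 targets of Nrf2, the regulator of antioxidant genes, passed in either comparison without or with the block, and the largest values were those of Slc7a11, the cystine transporter (-0.41 for UK14,304), and Hmox1, heme oxygenase (-0.32).

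Among the other partners of Mlx, Mxd1, a repressor of the Max network, fell with UK14,304 in the fit with the block. It averaged 105 ± 28.6 CPM (SD, n = 4) in DMSO vehicle samples and 81.4 ± 16.8 CPM (SD, n = 5) with UK14,304, with overlapping groups. In 4 of 4 pairs it was lower, as were 15.5% of all genes tested. The log2 fold change was -0.36 (adjusted p = 0.0031 with the block and 0.512 without, edgeR's quasi-likelihood test with Benjamini-Hochberg adjustment). Mnt, another repressor of this network, gave -0.04. Of the 6 tested alpha-arrestins and ubiquitin ligases, none passed, and Arrdc1 and Wwp1 had the largest values, at -0.13 and 0.10 for norepinephrine.

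Txnip is also known as a target of FoxO factors and of the glucocorticoid receptor. Of the 8 FoxO factors and targets, 6 were positive for norepinephrine and 7 for UK14,304, with medians of 0.02 and 0.04, and none passed without or with the block. Pik3ip1, an inhibitor of PI3 kinase, gave 0.15 and 0.16, and Ccng2, a cyclin, 0.00 and -0.17. Of 6 tested genes of the glucocorticoid list, Tsc22d3, which encodes the glucocorticoid-induced leucine zipper, fell with UK14,304, from 39.9 ± 3.00 CPM (SD, n = 4) to 32.0 ± 3.16 CPM (SD, n = 5), as 1 of 6 genes against 1.04% of all genes. The groups did not overlap, which held in this direction for 1.78% of all genes (log2 fold change -0.33, adjusted p = 0.00303 with the block and 0.119 without, edgeR's quasi-likelihood test with Benjamini-Hochberg adjustment). Sgk1, a kinase that is also induced by glucocorticoids, had a log2 fold change of 0.37 ± 0.21 (SE) and did not pass without or with the block.

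The calls for norepinephrine in these lists turned on 1 library. When norepinephrine m4 was left out of the fit with the block, 6 of the 14 targets of the Mondo factors fell, which were Acly, Fasn, Khk, Pklr, Tkfc and Tkt. Of the alpha-arrestins and ligases Arrdc1 fell, and the ligases Itch, Nedd4 and Wwp1 rose. Prdx5, Txn2, Txnrd2 and Mxd1 also fell, and the insulin receptor gene Insr and the glucocorticoid receptor gene Nr3c1 rose. In that fit 16.7% of 15161 genes passed for norepinephrine and 8.08% for UK14,304.

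Further genes of these lists passed for UK14,304 in other fits with the block. Of all genes, 525 passed with its own vehicle only, 272 with DESeq2 and 637 with the GC trend removed, against 186 with the block alone. The count was 1225 without norepinephrine m4 and 194 without UK14,304 m4. With its own vehicle only, G6pc rose and Slc2a5, Tkfc, Hkdc1, Hmox1 and Per1 fell. Per1, a clock gene that is also induced by glucocorticoids, fell with DESeq2 too. With the GC trend removed, Slc2a5, Tkfc, Slc7a11, Ccng2 and Per1 fell and Sgk1 rose. Without norepinephrine m4, G6pc, Sgk1, Nr3c1, Gclc and Nedd4 rose, and Slc2a5, Tkfc, Acly, Tkt, Hkdc1, Slc5a1, Hmox1, Ccng2 and Per1 fell. Without UK14,304 m4, Slc7a11 and Ccng2 fell.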

How the data were processed

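Sequencing of 50 bp single-end RNA-seq libraries was done by the authors. The deposited table holds raw read counts per gene, made by the authors with STAR 2.7.3 and Subread 1.6.4 according to the submitters' processing notes, on GRCm38. Reads were counted without regard to strand, and reads over several genes or with several alignments were not counted. The mapping of samples to groups follows the sample labels.

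From these counts, 15247 genes passing edgeR's filter on low counts were tested in all 18 samples together with edgeR 4.0.16 (R 4.3.3), using TMM scaling, a robust quasi-likelihood fit with 1 term per group and Benjamini-Hochberg adjustment over all genes tested (threshold 0.05). CPM values are scaled by TMM, and CPM per kb divides them by exon length. In the main design no replicate number was used. The alternative with the number as a block is printed where it changed a call. The numbers pair the samples: same-numbered agonist and vehicle samples deviated together, with correlations of 0.119 to 0.431 for norepinephrine and 0.155 to 0.52 for UK14,304, against means of -0.07 and -0.09 for different numbers. The labels do not state what the numbers stand for. If samples of a number are cultures of 1 mouse, p-values cover the spread between mice, and otherwise only that between these samples. DESeq2 1.42.0 was an alternative. The scripts were tested on simulated data with changes larger than those of Txnip, so the recovery of changes of that size was not examined. No pair of libraries of the same group was a duplicate, and libraries of different groups were not compared in this way.

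The 9 genes and all lists were chosen with earlier results of these data known. Besides the 9 genes and Gm15441, the text names from each list the genes past the threshold (at most 5) and the 2 with the largest log2 fold change, and the 5 genes most correlated with Txnip. Others named were chosen after their values were seen.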

Additional observations from a re-analysis of the deposited data

How the results depend on the processing

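The number of genes called varied with the pairing and the scaling, and the cause was not tested. For norepinephrine, 0 genes passed, and with the replicate block 16 passed, or 34 with DESeq2, 15 with its own vehicle only, 16 with the ribosomal RNA share and 36 with the GC trend removed, each with the block. For UK14,304, 6 passed, and 22 without the filter on low counts, 46 with DESeq2, 1 with its own vehicle only, 2 with the ribosomal RNA share and 19 with the GC trend removed. With the replicate block these became 186, 272 with DESeq2, 525 with its own vehicle only, 78 with the ribosomal RNA share and 637 with the GC trend removed. For the difference between the agonists the count was 0, and 1 with DESeq2 and the block. When 1 sample was left out, the counts for norepinephrine ranged from 0 to 0 without the block and from 10 to 2529 with it, those for UK14,304 from 2 to 11 and from 68 to 1225, and those for the difference from 0 to 0 and from 0 to 1. The highest counts with the block came without norepinephrine m4, and leaving out samples in the fit with the block was chosen after seeing the data. For Txnip with norepinephrine, the log2 fold change lay between 0.16 and 0.19 over 12 alternatives and the adjusted p (edgeR or DESeq2) between 0.000133 and 0.975, and 4 passed, all with the block. Of 1872 values of single genes, 43 newly passed and 94 changed sign, 41 of them for UK14,304 or the difference in the 9 genes, where no test was made. Under fits with the block, the ribosomal RNA share, and both, Mlxip for norepinephrine was -0.0012, -0.0018 and -0.0039. Mlxipl for norepinephrine was 0.0016 with its own vehicle and the block, 0.0083 over m1 to m4, and 0.0446 and 0.024 with the GC trend removed without and with the block. In the same 2 fits on GC content, Pnpla3 for norepinephrine was 0.0822 and 0.0515, Arrdc1 for UK14,304 was 0.0352 and 0.0333, and Mnt was 0.003 and 0.014 for norepinephrine and 0.047 and 0.0574 for UK14,304. Wwp1 with the GC trend removed was -0.01 for norepinephrine and -0.0099 for UK14,304. Arrdc1 for UK14,304 was 0.004 with the ribosomal RNA share and the block, and Pnpla3 for norepinephrine was 5e-04 without the filter. Ccng2 for norepinephrine was 0.0011 with DESeq2's size factors, 0.0071 without the filter, 0.0012 with DESeq2 and 0.0012 with its own vehicle only. Leaving out 1 sample gave signs on both sides of 0 for norepinephrine in Mlxip (-0.0117 to 0.0189, with the block -0.0247 to 0.0201), Mlxipl (-0.0711 to 0.0117, with the block -0.0923 to 0.0065), Txnrd1 (-0.0236 to 0.0528, with the block -0.0044 to 0.0377), Txn1 (-0.0671 to 9e-04), Arrdc3 (-0.0891 to -0.0148, with the block -0.0974 to 0.0012), G6pc (-0.089 to 0.2003), Pnpla3 (-0.0902 to 0.0819), Slc7a11 (-0.1717 to 0.1714) and Ccng2 (-0.0584 to 0.0653), and for UK14,304 in Arrdc1 (-0.0672 to 0.0069), Mlxipl (-0.0344 to 0.0701, with the block -0.0334 to 0.0664), Txnrd1 (-0.0281 to 0.0413, with the block -0.014 to 0.0131) and Txn1 (-0.0403 to 1e-04). For the difference in the 9 genes, it did so in Arrdc4, Arrdc3, Mlxipl, Txn1 and Txnrd1. Genes counted below 100 times, such as Gm15441, are limited by depth.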
